A study of Mus musculus with 4 samples.

Results

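RIF-1 cells, a mouse line from a radiation-induced fibrosarcoma, were depleted of Bre1a by RNA interference and their RNA was hybridised against that of control cells. The Bre1a knockdown was measured on 2 of the 4 two-colour arrays of the series. On 1 array the control was RIF-1 cells without knockdown, and on the other it was RIF-1 cells given a mock knockdown against GFP. The remaining 2 arrays held a knockdown of Bre1b against the same pair of controls and are used here for comparison. Every array carried knockdown RNA in Cy5 and control RNA in Cy3, so a gene's dye bias and its response to the knockdown cannot be told apart. The sources used here do not give the interfering sequences, the time after knockdown, any other treatment of the cells, or whether the RNAs came from separate cultures. The spread behind the p-values is that left between arrays once the control is allowed for, and it may be technical.

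Bre1a is the product of the gene Rnf20 and Bre1b that of Rnf40. The proteins form a RING-type ubiquitin ligase that attaches a single ubiquitin to histone H2B in transcribed genes. This mark is known to promote methylation of histone H3 by the COMPASS and Dot1l enzymes, to help RNA polymerase II pass through chromatin, and to be needed for repair of DNA breaks. Loss of RNF20 in human cells is known to lower the transcripts of some genes and to raise those of others.

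Each array had 38784 spots, of which 19874 to 22255 held a value. Both Bre1a arrays had values for 20078 probes. Of these, 13646 were named by the platform annotation and averaged into 9127 genes, and 6432 had no gene name. All values below are log2 ratios of knockdown over control, so 1 is 2-fold higher and -1 is 2-fold lower. Where a pair of values is given for a gene, the first is against no knockdown and the second against mock. An SD is that of the 2 arrays (n = 2). A limma fit held the 8676 genes with values on all 4 arrays. A gene was called when its adjusted p was under 0.05, and only called genes are said to have risen or fallen. The fit holds a term for the control on the array, so its p does not measure the SD of the 2 Bre1a arrays. Its spread is how far the control difference disagreed between the Bre1a and Bre1b arrays, moderated over all genes. A ratio says nothing of how bright a spot was, and in RNA of a whole culture a loss of cells and a loss of RNA per cell cannot be told apart.

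The gene aimed at was lower on both arrays. Rnf20 stood at -1.60 and -1.35, that is at 35.9% of the control level (mean -1.48 ± 0.18, SD, n = 2, limma adjusted p = 0.0212). On the Bre1b arrays Rnf20 was not reduced, at 0.42 and 0.51. Rnf40, the gene of the partner protein, rose slightly after Bre1a knockdown by the probe of the fit, with 0.17 and 0.65 (mean 0.41 ± 0.34, SD, n = 2, limma adjusted p = 0.0349). A second Rnf40 probe, which has no value on the Bre1b arrays, gave -1.92 and 0.56, so the direction of Rnf40 depends on the probe. The difference between the knockdowns was -1.94 for Rnf20 (SE 0.07, limma adjusted p = 0.0372) and 1.77 for Rnf40 (SE 0.08, limma adjusted p = 0.0372). With no control term in the fit, the limma adjusted p on the Bre1a arrays became 0.0577 for Rnf20 and 0.236 for Rnf40.

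Other genes of the H2B ubiquitin pathway mostly changed by small amounts. Of 21 fitted members, 10 were called higher and 1 lower, the latter being Rnf20, where 21.1% and 19.9% of all fitted genes were called higher and lower, with a list median of 0.22 against 0.03 over all genes. The list was chosen with results of these data known, as were all lists below. Dot1l, the methyltransferase of histone H3 lysine 79 that reads the H2B mark, rose by 0.67 and 1.24 (mean 0.95 ± 0.40, SD, n = 2). Usp12, a deubiquitinase that acts on histone H2A and H2B, was at 0.24 and 0.54 and rose by a mean of 0.39 ± 0.21 (SD, n = 2). Supt5, a subunit of the elongation factor DSIF, was at 0.29 and 0.50 and also rose. Eny2, a subunit of the SAGA deubiquitinase module, was at -1.71 and -0.90 and could not be fitted because a Bre1b value was missing.

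Among named genes, 6347 of 9127 (69.5%) had the same sign on both arrays, 3286 higher (36%) and 3061 lower (33.5%). Agreement grew with the size of the change. Among the 1062 genes at least 0.5 from 0 on both arrays, 87.4% agreed, 216 higher and 712 lower. A ratio of 2-fold or more on both arrays, in 1 direction, was seen upward in 58 genes (0.635%) and downward in 238 (2.61%). Large changes after Bre1a knockdown were thus mostly decreases. The median absolute difference of a gene between the arrays was 0.25, and 726 genes differed by 1 or more.

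**Figure D1:**
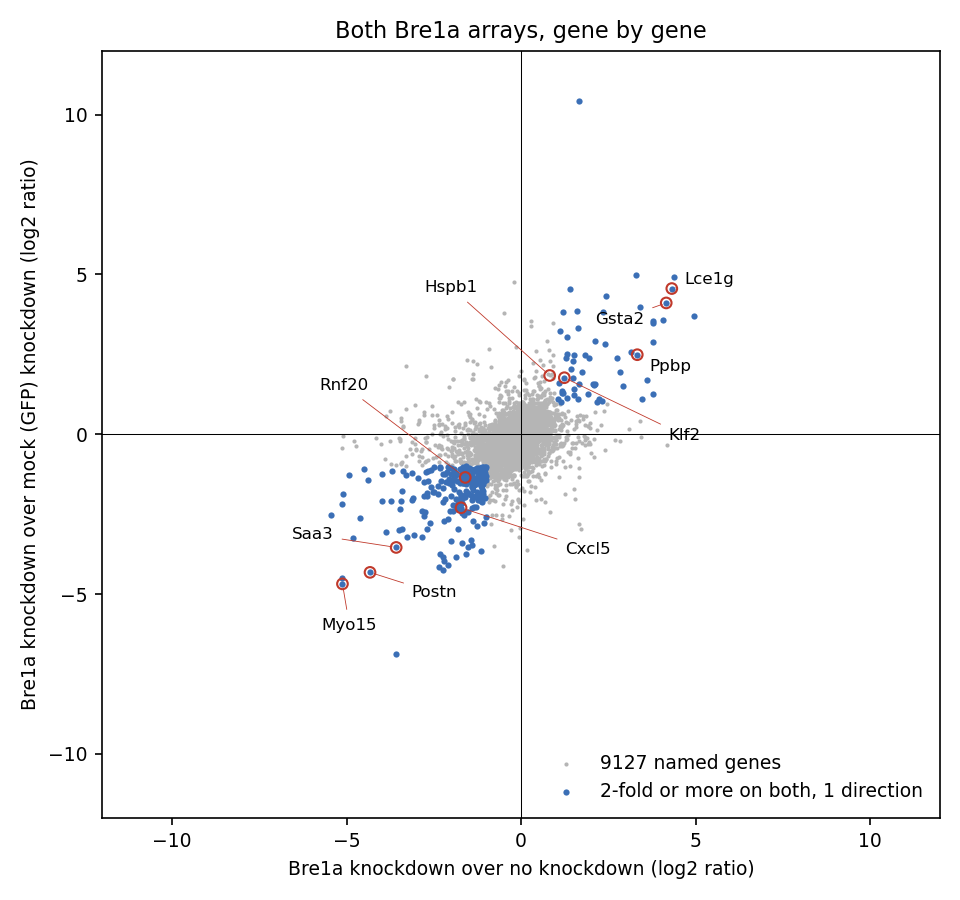
Log2 ratio of each of 9127 named genes on the array of Bre1a knockdown over no knockdown (horizontal axis) and over mock (GFP) knockdown (vertical axis). Blue points are at least 2-fold from the control on both arrays in 1 direction, and red circles mark genes described in the text. Fitted genes are drawn by the probes of the fit, whereas the counts of 58 higher and 238 lower rest on all probes with both Bre1a values. The lower left corner holds more blue points than the upper right.

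By the limma fit 3551 of 8676 genes were called (40.9%), 1828 higher (21.1%) and 1723 lower (19.9%). Counts of called members below are to be read against those shares. Many calls were small: 674 were under 1.2-fold, the median absolute log2 ratio of called genes was 0.38, and 240 called genes had opposite signs on the arrays. The fit includes a term for the control on the array, and without it 2 genes were called, Postn and Lce1g, with 2078 at an unadjusted p under 0.05. Without the Bre1a array against no knockdown 35 genes were called, without the Bre1a array against mock 131, and without either Bre1b array 7, in fits that could hold no control term. Called genes named in the text had limma adjusted p from 0.0212 to 0.0463 in the full fit. The values on both arrays are therefore given beside each call.

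Genes of innate immunity and the acute phase were among the most strongly reduced. Of 22 fitted members 0 were called higher and 14 lower, with a median of -0.46. Saa3, a serum amyloid A protein made in inflammation, was at -3.58 and -3.54 (mean -3.56 ± 0.03, SD, n = 2, limma adjusted p = 0.0333). Casp4, the caspase that senses bacterial lipopolysaccharide inside the cell, was at -3.08 and -3.14, with both of its probes between -3.24 and -2.93. Ncf4, a subunit of the NADPH oxidase, was at -2.71 and -2.95 (mean -2.83 ± 0.17, SD, n = 2, limma adjusted p = 0.0231). All of them fell to a similar extent against either control. Trem2, a receptor of macrophages and microglia, fell with -2.77 and -2.55. The complement proteases C1s1, C1ra and C1rl, whose genes lie side by side on chromosome 6, were lower against mock than against no knockdown. C1s1 was at -1.14 and -3.66, C1ra at -0.92 and -2.12 and C1rl at -0.66 and -1.60, and each was called lower.

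Many transcripts of the NF-kB pathway fell. NF-kB is the family of transcription factors that drives inflammatory genes, and several of its own subunits and inhibitors are its targets. Of 20 fitted members 0 were called higher and 12 lower, with a median of -0.44. Relb, a subunit of the noncanonical pathway, fell with -1.15 and -1.63 (mean -1.39 ± 0.34, SD, n = 2, limma adjusted p = 0.0212). Its partner Nfkb2 was at -0.63 and -0.90 and fell less. The feedback inhibitors followed the same direction: Tnfaip3, known as A20, was at -1.08 and -1.78, and Nfkbie at -0.95 and -1.54. Birc3, a ubiquitin ligase that protects cells from TNF-induced death, was at -0.98 and -1.36. Bcl3, a nuclear cofactor of the family, was at -1.40 and -0.80. These genes were all called lower. Ubd, a ubiquitin-like modifier induced by TNF and interferon gamma, fell further, with -2.83 and -3.21 (mean -3.02 ± 0.27, SD, n = 2, limma adjusted p = 0.0212).

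Cytokines and their receptors gave 3 higher and 13 lower calls among 20 fitted members, with a median of -0.39. The receptor for oncostatin M, Osmr, fell with -2.52 and -1.79 (mean -2.16 ± 0.52, SD, n = 2, limma adjusted p = 0.0223). Il13ra1, a chain of the receptors for interleukins 4 and 13, was at -1.76 and -1.51 and fell as well. Il11, a cytokine of the interleukin 6 family, fell with -2.09 and -0.68, a difference between the controls larger than that of the receptors. Tnfrsf9, a costimulatory receptor of the TNF family, was at -0.72 and -1.62, and Socs3, an inhibitor of cytokine signalling, at -0.56 and -0.84. Both were called lower.

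Chemokines, which attract leukocytes, did not move as 1 group. Of 13 fitted members 3 were called higher and 6 lower. Cxcl5, which attracts neutrophils, fell with -1.72 and -2.30 (mean -2.01 ± 0.41, SD, n = 2, limma adjusted p = 0.0212). The monocyte chemokines Ccl2 and Ccl7 were at -0.45 and -1.26 and at -0.90 and -0.58, and Cxcl10, which attracts T cells, was at -0.74 and -0.39. These 3 were called lower with smaller ratios. Ppbp, a chemokine of platelets, was instead strongly raised, with 3.33 and 2.49 (mean 2.91 ± 0.60, SD, n = 2, limma adjusted p = 0.0223). Ccl25, a chemokine of thymus and gut, rose with 0.53 and 1.63.

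Many interferon-induced genes fell, and the list medians were lower against mock. In the antiviral list 1 of 30 fitted members was called higher and 16 lower, with medians of -0.20 against no knockdown and -0.33 against mock. Irf9, the DNA-binding subunit of the factor ISGF3, fell with -1.75 and -0.78. Eif2ak2, the kinase PKR that is activated by double-stranded RNA, was at -0.70 and -0.63, and the RNA sensor Ddx58, known as RIG-I, at -0.37 and -0.72. Usp18, which removes the ubiquitin-like protein Isg15 and damps interferon signalling, was at -1.65 and -0.44. All 4 were called lower, and of these Irf9 and Usp18 differed most between the controls, with the larger decrease against no knockdown. Cmpk2 went the other way, at 2.33 and 1.05, and could not be fitted. It was the only member of the list at least 2-fold from the control on both arrays in 1 direction.

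The interferon-induced GTPases, which attack the vacuoles of intracellular parasites, split by control. Of 7 fitted members 0 were called higher and 4 lower, while against no knockdown the median of the list was 0.12 and against mock it was -0.84. Igtp was at -0.74 and -1.12, Irgm2 at -0.45 and -0.84 and Ifi47 at -0.41 and -1.30, and these 3 were called lower. In the antigen presentation list 8 of 16 fitted members were called lower and 0 higher, with medians of -0.03 and -0.57. Psmb9, a subunit of the immunoproteasome, was at -0.31 and -1.23, and the peptide transporter Tap1 at -0.46 and -0.45.

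The element bound by interferon-activated factors is known to hold a spaced repeat. The letters TTTC, any 2 bases and TTTC again, searched on both strands in the 250 bases before the start site, were present in 13 of 48 promoters of the interferon and antigen presentation lists (27.1%) and in 936 of 27025 promoters of all genes (3.46%). Among the GTPases alone 5 of 6 promoters held them (83.3%). The stretches of Igtp and Irgm2 are shown because both genes fell and because their promoters are nearly alike, so that the elements can be compared. They were taken from the RefSeq promoter table of GRCm38.p6, plus strand, and the capitals mark the match, which reads on the opposite strand. Igtp lies at chr11:58199497-58199555 and Irgm2 at chr11:58214888-58214947.
Igtp: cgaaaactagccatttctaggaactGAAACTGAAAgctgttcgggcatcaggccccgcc
Irgm2: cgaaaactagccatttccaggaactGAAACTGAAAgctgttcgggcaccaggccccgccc
A match of letters describes the window and is not a measured binding site.

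**Figure D2:**
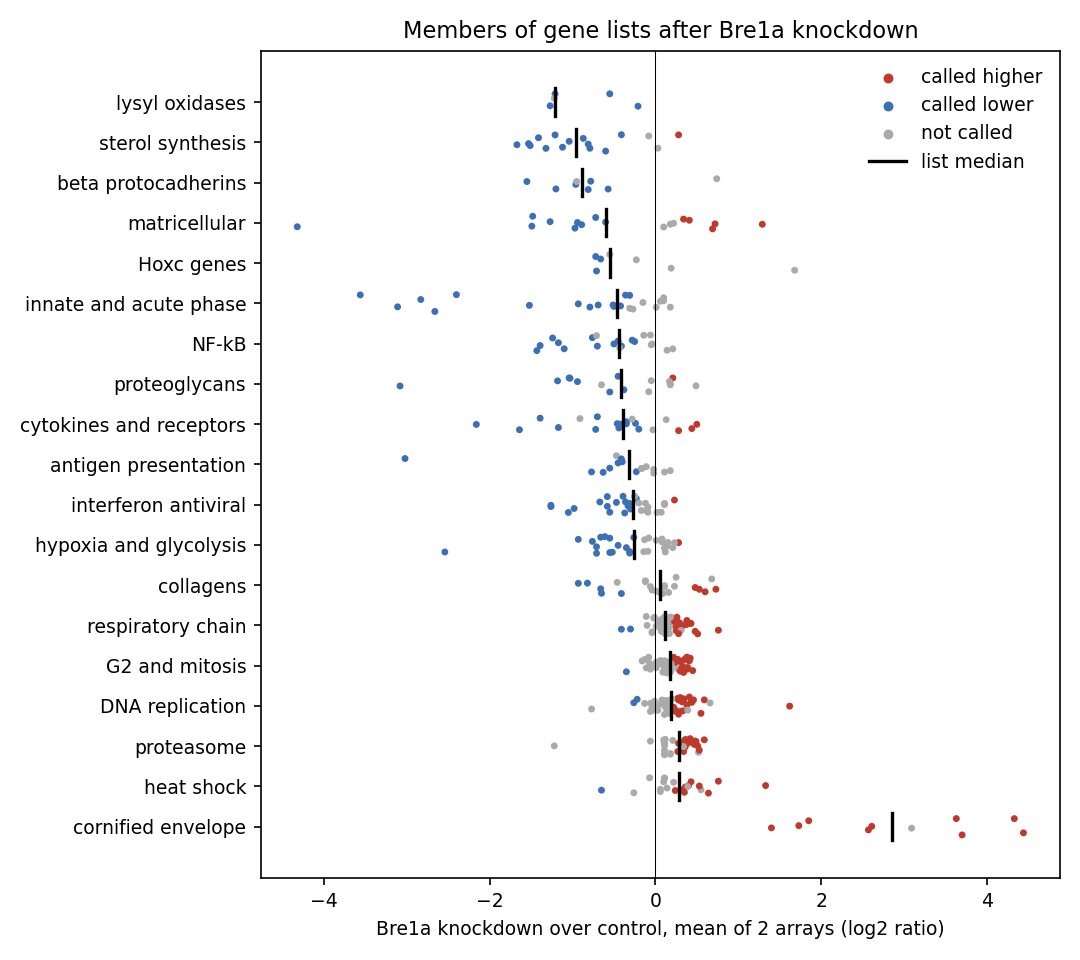
Mean log2 ratio of Bre1a knockdown over control on 2 arrays (horizontal axis) for the fitted members of 19 gene lists (rows). Each point is 1 gene, red if called higher, blue if called lower and grey if not called, and the black bar is the list median, from -1.21 for lysyl oxidases to 2.85 for the cornified envelope.

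Matrix genes showed a mixed picture: more proteoglycans and crosslinking enzymes were called lower than higher, and matricellular proteins and collagens were divided. Of 17 fitted matricellular genes 5 were called higher and 9 lower, with a median of -0.60. Postn, periostin, a protein of collagen-rich and healing tissue, was at -4.33 and -4.32 by the probe of the fit (mean -4.32 ± 0.00, SD, n = 2, limma adjusted p = 0.0212). A second Postn probe gave -1.83 and -7.65, so the direction was shared and the size was not. Thbs2, an inhibitor of vessel growth, was at -1.50 and -1.04 and fell. Ccn4, a secreted target of Wnt signalling, fell with -1.38 and -1.61. Emilin1, a protein of elastic fibres, was at -0.68 and -1.19 and also fell. Fn1, fibronectin, was called lower with -0.72 and -0.48, although 1 of its 4 probes gave -0.178 and 0.238. Among the 5 that rose were Ccn1 at 0.96 and 0.47 and Ccn2, also known as connective tissue growth factor, at 2.28 and 0.29.

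All 5 lysyl oxidases, the enzymes that crosslink collagen and elastin, had negative means, and 4 were called lower. Lox was at -1.17 and -1.37 (mean -1.27 ± 0.14, SD, n = 2, limma adjusted p = 0.0212), Loxl1 at -0.87 and -1.55 and Loxl4 at -0.54 and -0.56. Loxl2, the fourth, was called lower although the arrays had opposite signs, at 0.14 and -0.56. Loxl3 was at -0.75 and -1.69 and was not called (limma adjusted p = 0.0856). Among proteoglycans and small leucine-rich proteins 8 of 16 fitted members were called lower and 1 higher, with a median of -0.42. Aspn, asporin, which binds collagen and TGF-beta, was at -2.21 and -3.95. Decorin (Dcn) was at -0.77 and -1.32, and biglycan (Bgn) had a mean of -0.94 ± 0.09 (SD, n = 2). These 3 collagen-binding proteins all fell.

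Of 24 fitted collagens 4 were called higher and 5 lower, with a median of 0.06 that lies next to that of all genes. Col3a1, of fibrillar collagen, was at -1.12 and -0.74 and fell, and Col6a1 fell with -0.89 and -0.75. The Col3a1 probes differed in size, 1 with -2.071 and -1.305 and the other with -0.175 and -0.179. Col1a1, the main chain of fibrillar collagen, rose with 0.62 and 0.34, and the basement membrane chain Col4a2 with 0.82 and 0.64. Proteases and their inhibitors were divided as well, 5 higher and 11 lower of 27. The collagenase Mmp13 was at -0.82 and -2.54 and the stromelysin Mmp10 at -1.26 and -0.94, and both fell. Timp3, an inhibitor of these enzymes, fell with -0.71 and -0.62. Serpinb2, an inhibitor of plasminogen activators, rose with 1.51 and 2.47.

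Adhesion genes were called higher 5 times and lower 6 times among 22. Cdh11, the cadherin of mesenchymal cells, fell with -2.71 and -1.94 (mean -2.33 ± 0.54, SD, n = 2, limma adjusted p = 0.0212). Nrcam, an adhesion molecule of neurons, rose with 1.53 and 1.23. Most measured members of a further adhesion family fell. The beta protocadherins are encoded by a cluster of single-exon genes on chromosome 18, and on both arrays 8 of its measured genes in a row, Pcdhb8 and Pcdhb15 to Pcdhb22 as far as measured, were at least 0.5 below the control. Of 8 fitted members of the family 6 were called lower and 0 higher, with a median of -0.88. Pcdhb20 was at -1.37 and -1.74, Pcdhb19 at -1.23 and -1.17, Pcdhb17 at -1.02 and -0.91 and Pcdhb21 at -0.90 and -0.67. The genes are closely related paralogs, so their probes may share signal. On the Bre1b arrays the list median was -1.07, against the same controls.

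Growth factors and their receptors gave 5 higher and 13 lower calls among 29. Hgf, the ligand of the receptor Met, fell with -1.97 and -1.47. Igf1 was at -0.89 and -2.07 and Fgf21 at -1.30 and -1.52, and both fell. Pdgfrb, a receptor of fibroblasts and pericytes, fell with -0.64 and -1.08. Igfbp2 was higher, at 1.40 and 4.54, and could not be fitted. In the TGF-beta and BMP list 13 of 32 fitted members were called lower and 2 higher, although the median was -0.10. The ligands Tgfb1 and Tgfb3 were at -0.73 and -0.78 and at -0.64 and -0.78, and the coreceptor Tgfbr3 at -0.90 and -1.36. All 3 were called lower. Of 25 fitted Wnt genes 4 were called higher and 9 lower. The ligands Wnt6 and Wnt10a, which are neighbours on chromosome 1, were at -2.59 and -1.65 and at -0.83 and -1.18 and both fell. Wnt2 was higher, at 0.92 and 2.47, and was not fitted. On both arrays 10 measured Wnt genes were higher and 12 lower. At least 2-fold from the control on both were 1 higher, Wnt4, and 1 lower, Wnt6. Wnt4 was at 2.24 and 1.09 and was not called (limma adjusted p = 0.225).

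Cholesterol synthesis was the metabolic pathway with the largest share of lower calls among the lists examined, 13 of 16 fitted enzymes against 1 higher, with a median of -0.96. Its enzymes are known to be raised together by the factor Srebf2 when cells lack sterol. Msmo1, a sterol methyl oxidase, was at -1.44 and -1.90 (mean -1.67 ± 0.32, SD, n = 2, limma adjusted p = 0.0212). Cyp51, the lanosterol demethylase, was at -1.42 and -1.64, and Lss, which closes the lanosterol ring, at -1.08 and -1.95. Earlier steps were lower as well: Hmgcs1, which makes HMG-CoA, was at -1.07 and -1.35 and the isomerase Idi1 at -1.29 and -1.54. Hsd17b7, a later reductase, was at -1.09 and -1.54. Each of these enzymes fell more against mock than against no knockdown, and the list median was -1.25 with mock as the control and -0.72 with no knockdown.

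Regulators and transporters of sterols changed less, with 6 of 15 called lower and 1 higher. The Srebf retention proteins Insig1 and Insig2 were at -0.76 and -1.31 and at -0.75 and -1.22, and the sterol carrier Stard4 at -0.60 and -0.79, all called lower. Of 19 fatty acid genes 8 were called lower and 2 higher. The desaturases Scd1 and Fads2 fell with -1.08 and -1.96 and with -0.31 and -1.01. Fasn, the fatty acid synthase, rose with 0.55 and 0.45, so synthesis and desaturation did not move together. The sterol response element written TCACNCCAC was found in 1 of 26 sterol promoters (3.85%), that of Hmgcs1, and in 331 of all promoters (1.22%). The stretch at chr13:119690189-119690247 of GRCm38.p6, plus strand, from RefSeq, is shown with the match in capitals because no other sterol promoter searched held these letters.
Hmgcs1: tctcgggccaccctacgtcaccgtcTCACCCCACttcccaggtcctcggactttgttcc

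Genes induced by low oxygen and genes of glycolysis were lower in 15 of 29 cases and higher in 1, with a median of -0.26. Car9, a carbonic anhydrase of the cell surface and a known target of hypoxia-inducible factor, fell with -1.69 and -3.40 and differed 2-fold or more between the controls. Slc16a3, the lactate exporter, fell with -0.80 and -1.06. Vegfa, the growth factor of blood vessels, was at -0.79 and -0.72 and the hexokinase Hk2 at -0.68 and -0.74. The latter 2 fell by nearly equal amounts against both controls. The core of the hypoxia response element, ACGTG on either strand, was present in 19 of 27 promoters of the list (70.4%) and in 4998 of all promoters (18.5%). Windows of Car9 at chr4:43506983-43507025 and Slc16a3 at chr11:120949015-120949066, both plus strand of GRCm38.p6 from RefSeq, are shown as those of the 2 lowest members described, with matches in capitals.
Car9: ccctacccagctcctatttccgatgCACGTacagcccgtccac
Slc16a3: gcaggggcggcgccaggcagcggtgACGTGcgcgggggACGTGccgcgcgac

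Transcription factors and early response genes moved in both directions. Of 34 immediate early genes and feedback phosphatases 8 were called higher and 15 lower. Fos was at -1.55 and -0.64 and Maff at -0.57 and -0.62, and both fell. Dusp4, a phosphatase of MAP kinases, rose with 0.79 and 1.07, and its relative Dusp16 fell with -0.95 and -0.55. Klf2, a factor of quiescent and endothelial cells, rose with 1.24 and 1.77 (mean 1.51 ± 0.37, SD, n = 2, limma adjusted p = 0.0212). Klf9 was at -1.02 and -1.10, Klf11 at -0.66 and -0.66 and the adipocyte factor Cebpa at -1.27 and -1.41, and these 3 fell. In the Hoxc cluster 3 of 7 fitted genes were called lower and 0 higher. Hoxc5, Hoxc6 and Hoxc8, which set position along the body axis, were at -0.60 and -0.72, at -0.47 and -0.96 and at -0.74 and -0.68. A pair of deacetylases stood apart in opposite directions: Hdac11 fell with -1.04 and -1.21 and Hdac7 rose with 0.58 and 0.73.

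Many of the highest genes after Bre1a knockdown belonged to the epidermal differentiation complex. This stretch of chromosome 3 encodes proteins of the cornified envelope, the crosslinked shell of dead skin cells. Of 53 listed members 13 had values on both Bre1a arrays. All 13 were higher on both, 11 of them at least 2-fold. Of the 10 that could be fitted 9 were called higher and 0 lower, with a median of 2.85. In chromosome order, 12 measured genes in a row from Lor to Crct1 were at least 0.5 above the control on both arrays. The rule that left spots without a value is not known. Members may have passed it because they were high, which was not tested.

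Lce1g, a late cornified envelope protein, was at 4.32 and 4.56 (mean 4.44 ± 0.17, SD, n = 2, limma adjusted p = 0.0212). The neighbours Lce1h and Lce1e were at 4.97 and 3.70 and at 3.79 and 3.48, and Lce1i at 2.76 and 2.38. The small proline-rich protein gene Sprr2a1 was at 3.42 and 3.98, and Crct1 at 2.40 and 2.81. These genes were all called higher. Loricrin (Lor), the main envelope protein, rose less, with 0.63 and 2.18, and Sprr1a with 0.81 and 2.64. Involucrin (Ivl) at 3.29 and 4.97, Sprr2k at 4.07 and 3.59 and Lce1l at 1.83 and 2.49 could not be fitted for want of a Bre1b value. Prr9 was at 2.35 and 3.83 and was not called (limma adjusted p = 0.0706). The Lce1 and Sprr genes are close paralogs whose probes may share signal. On the Bre1b arrays the list median was 2.92, against the same controls.

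**Figure D3:**
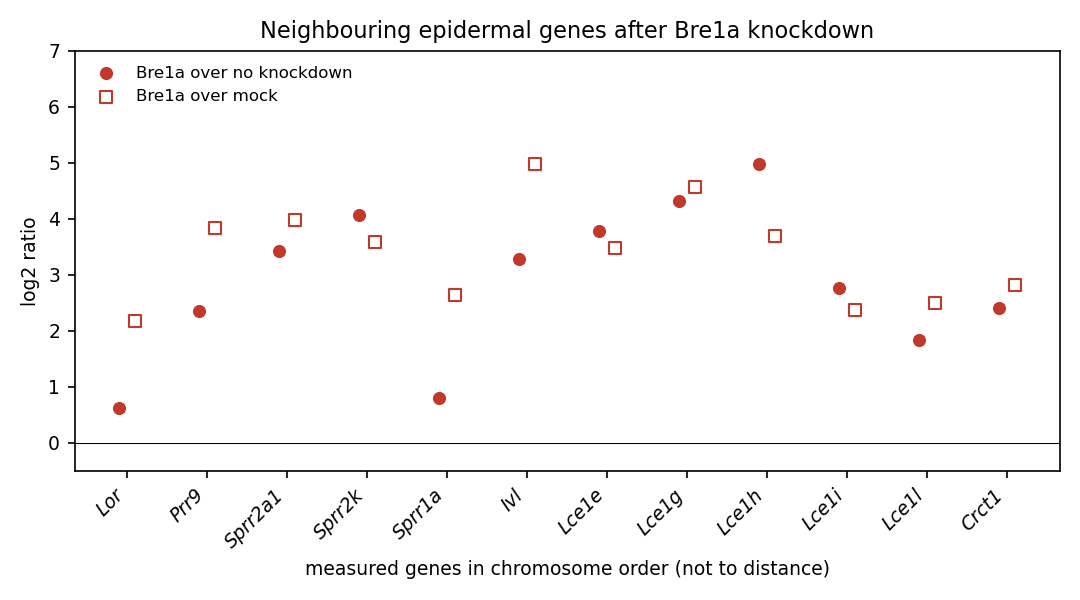
Log2 ratio on the Bre1a arrays (vertical axis) of 12 measured genes that follow each other on chromosome 3 (horizontal axis, in order and not to distance), with filled circles against no knockdown and open squares against mock. Every point is above 0, from 0.63 for Lor against no knockdown to 4.97 for Lce1h against no knockdown and for Ivl against mock.

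Keratins did not follow as a group. Of 7 fitted keratins 1 was called higher, Krt1, at 0.28 and 0.38, and 3 were called lower. Krt18, the keratin of simple epithelia, fell with -1.19 and -1.22, and its partner Krt8 with -0.47 and -2.04. Markers of other cell types were also examined. Of 7 epithelial markers 3 had values on both arrays, Krt8, Krt18 and Epcam, the last at -0.24 and 0.61 and not called. Of 9 leukocyte markers 1 had values, Ptprc, at -0.51 and -2.17, and of 5 endothelial markers 1, Cdh5, at -1.51 and -1.85, neither of which could be fitted. Of 8 mesenchymal markers 7 had values, and of these 1 was called higher (Col1a1) and 3 lower (Fn1, Col3a1 and Pdgfrb, given above). Col1a2 was at 0.08 and 0.05 and was not called. Vim and S100a4 cannot be read as unchanged, since the spot of S100a4 and 9 of the 12 spots of Vim held the value that repeats on each array (0.079 and 0.148), which may be no measured ratio. Whether cells of another type contributed to any result was not tested.

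Glutathione transferases, which join glutathione to foreign compounds and lipid oxidation products, were divided, 4 higher and 4 lower of 16. The alpha class stood out by size. Gsta2 was at 4.16 and 4.11 (mean 4.13 ± 0.04, SD, n = 2, limma adjusted p = 0.0253) and Gsta4 at 1.57 and 0.41, and Gsta1, which was not fitted, at 3.77 and 3.56. Gsta1 and Gsta2 are near-identical, so the probes may share signal. Gsto2, of the omega class, rose with 0.91 and 1.02. Mgst2 was among the 4 called lower, with -0.48 and -0.57. The microsomal enzyme Mgst1 was at 1.66 and 10.43 and could not be fitted, and its value against mock is the highest of any named gene on that array.

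Redox genes of the Nrf2 pathway, which answers oxidants and electrophiles, were called higher in 10 of 31 cases and lower in 1. The list median was 0.11, with 0.08 against no knockdown and 0.15 against mock. The latter 2 equal to 2 decimals the value that repeats on each array, so they may be no measured ratio. Sod1, the cytosolic superoxide dismutase, rose with 1.13 and 1.02 (mean 1.07 ± 0.07, SD, n = 2, limma adjusted p = 0.0212). Gclm, a subunit of the enzyme that starts glutathione synthesis, rose with 0.74 and 1.10, and glutathione reductase (Gsr) with 0.59 and 0.72. Hmox1, the haem oxygenase, rose with 0.68 and 1.05. Thioredoxin (Txn1) was lower, at -1.57 and -1.55, and was not fitted. The antioxidant response element written TGACNNNGC was present in 9 of 43 promoters of the redox and transferase lists (20.9%) and in 3112 of all promoters (11.5%). The windows of Sod1 at chr16:90220681-90220739 and Gclm at chr3:122245398-122245456 are shown as those of genes that rose, with the match on the opposite strand. That of Maff at chr15:79346484-79346542 is shown because this member of the redox list, a small Maf protein, holds the match and fell, with -0.57 and -0.62. All are plus strand of GRCm38.p6 from RefSeq, with the match in capitals.
Sod1: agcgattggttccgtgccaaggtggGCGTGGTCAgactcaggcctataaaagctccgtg
Gclm: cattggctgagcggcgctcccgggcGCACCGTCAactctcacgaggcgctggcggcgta
Maff: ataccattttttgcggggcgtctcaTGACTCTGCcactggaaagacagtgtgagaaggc

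Many genes of protein quality control rose, by small amounts. Of 22 heat shock genes 10 were called higher and 1 lower, with a median of 0.28. Hspb1, a small heat shock protein, was at 0.82 and 1.84, Cryab, a related chaperone, at 0.65 and 0.87, and Stip1, which links Hsp70 to Hsp90, at 0.46 and 0.82. All 3 rose more against mock. Of 31 proteasome genes 15 were called higher and 0 lower, also with a median of 0.28. With spots at the repeated value dropped, 21 of the 31 remained, and 15 were called higher. The core subunit Psmb2 was at 0.57 and 0.61, the lid subunit Psmd7 at 0.41 and 0.65 and the ATPase Psmc1 at 0.30 and 0.68. Psmb6, a catalytic subunit, was at -1.97 and -0.48 and was not called (limma adjusted p = 0.0777). The calls in the standard proteasome were thus opposite to that of the immunoproteasome subunit Psmb9.

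Some proliferation genes rose by small amounts. For DNA replication 22 of 52 fitted genes were called higher and 2 lower, with a median of 0.19. Dna2, a nuclease and helicase that processes Okazaki fragments and broken ends, rose most among those described, with 1.49 and 1.75 (mean 1.62 ± 0.18, SD, n = 2, limma adjusted p = 0.0219). The S phase cyclins Ccne1 and Ccne2 were at 0.42 and 0.44 and at 0.56 and 0.61, and Slbp, which binds histone messenger RNA, at 0.53 and 0.58. These 3 rose by nearly equal amounts against both controls. For G2 and mitosis 18 of 48 were called higher and 1 lower, with medians of 0.05 against no knockdown and 0.30 against mock. The kinesin Kif11 was at 0.33 and 0.50, the factor Foxm1 at 0.36 and 0.43 and the checkpoint protein Mad2l1 at 0.45 and 0.45, each called higher. The kinase Pbk was the member called lower, at -0.35 and -0.34. Recombination and checkpoint genes were called higher 7 times and lower 5 times among 39, with a median of 0.02.

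Among p53 targets 15 of 33 were called higher and 4 lower, with a median of 0.27. Ccng1 was at 0.74 and 0.94, Mdm2, the ubiquitin ligase of p53, at 0.61 and 0.89, and Phlda3, an inhibitor of Akt, at 0.56 and 0.62. These rose. Of the 4 members called lower, those given here had means further from 0 than those of Ccng1, Mdm2 and Phlda3. The kinase Plk2 was at -1.94 and -2.22 (mean -2.08 ± 0.20, SD, n = 2, limma adjusted p = 0.0212). The autophagy gene Dram1 was at -1.36 and -1.58 and the death receptor Fas at -0.69 and -1.58.

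Amino acid and one-carbon metabolism was divided, 8 higher and 7 lower of 25. Psat1 and Psph of serine synthesis were at 0.52 and 0.78 and at 0.61 and 0.33, and asparagine synthetase (Asns) at 0.57 and 0.74, all called higher. Sat1, which breaks down polyamines, fell with -0.52 and -0.46. Respiratory chain genes were called higher in 19 of 74 cases and lower in 2, with a median of 0.12. It was 0.14 against no knockdown and 0.15 against mock. The latter equals to 2 decimals the value that repeats on that array, so it may be no measured ratio. Ndufa4 was at 0.57 and 0.95 and Ndufc2 at 0.47 and 0.49, and both rose. Ribosomal protein genes were called higher 7 times and lower 3 times among 67, shares below those of all genes. Their medians, 0.08 and 0.15, equal to 2 decimals the value that repeats on each Bre1a array, which may be no measured ratio. The low shares therefore cannot be read as a lack of change. Of 162 solute carriers 34 were called higher and 33 lower, close to the shares of all genes. The zinc transporter Slc39a8 rose with 1.21 and 1.28 and the mitochondrial carrier Slc25a27 with 0.97 and 0.96. The Slc25a27 probes differed, 1 with 1.791 and 1.045 and the other with 0.156 and 0.867. The organic anion transporter Slco1a5 fell with -2.17 and -2.02.

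Some of the largest single changes were in genes not yet given values here. Myo15, an unconventional myosin of hair cells, was at -5.12 and -4.68 (mean -4.90 ± 0.31, SD, n = 2, limma adjusted p = 0.0231). Gda, guanine deaminase, was at -3.86 and -3.07, and Rad9b, a paralog of the checkpoint clamp protein Rad9a, at -3.42 and -2.96. All 3 fell. Selp, the selectin of platelets and endothelium, was at 2.42 and 4.33 and was not called (limma adjusted p = 0.0687).

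The study's other knockdown shows where Bre1a differed. In the limma contrast of Bre1a minus Bre1b 2161 of 8676 genes were called (24.9%), 1014 higher (11.7%) and 1147 lower (13.2%). Without the control term 0 genes were called in limma, with 1286 at an unadjusted p under 0.05. Scaling every array to 1 common spread left 0 calls, with 2661 at an unadjusted p under 0.05. Without the Bre1a array against mock 70 genes were called, and without any other single array 0. Of the 157 fitted genes at least 2-fold lower on both Bre1a arrays, 68 were called lower than after Bre1b knockdown and 11 higher. Of these 157, 55 were also at least 2-fold lower on both Bre1b arrays. Of the 42 at least 2-fold higher, 18 were called higher than after Bre1b knockdown and 4 lower. Of these 42, 22 were also at least 2-fold higher on both Bre1b arrays. Both groups were picked by Bre1a values that the contrast reuses, so a tilt away from Bre1b was built in.

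Inflammatory genes were among those lower after Bre1a than after Bre1b knockdown. In the NF-kB list 9 of 20 fitted members were called lower than after Bre1b knockdown and 0 higher, and among chemokines 8 of 13 were lower and 2 higher. Interferon genes did not follow: 9 of 30 antiviral genes were called higher than after Bre1b knockdown and 5 lower. Of 7 interferon GTPases 3 were called higher and 0 lower, and of 16 antigen presentation genes 7 higher and 1 lower. Casp4 differed by -2.81, Osmr by -2.07 and Tnfaip3 by -1.83, each called. Ubd, which is in the antigen presentation list, was its 1 member called lower, by -2.23. Cxcl2, a neutrophil chemokine, was at -1.65 and -0.14 on the Bre1a arrays and at 3.23 and 4.12 on the Bre1b arrays (difference -4.57, SE 0.20, limma adjusted p = 0.0372). Il11, lower after Bre1a knockdown, was at 1.03 and 2.43 on the Bre1b arrays (difference -3.12, limma adjusted p = 0.0372). Atf3, a stress-induced factor, was at -1.42 and 0.44 against 1.68 and 3.47 and differed by -3.07. Of 34 immediate early genes 18 were called lower than after Bre1b knockdown and 1 higher. Saa3 was at -0.80 and 1.51 on the Bre1b arrays, and its difference of -3.92 was not called (limma adjusted p = 0.0565).

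Genes outside inflammation differed too. Cyp1b1, a cytochrome P450 of the aryl hydrocarbon receptor pathway, was at -1.90 and -0.85 after Bre1a and at 2.27 and 4.11 after Bre1b knockdown (difference -4.56, limma adjusted p = 0.0372). Zhx2, a transcriptional repressor of liver genes, was at -1.86 and -1.27 against 1.56 and 1.88, and Ror1, a receptor for Wnt5a, at -1.86 and -3.84 against 0.90 and 0.48. Stx3, a syntaxin of membrane fusion, was at -3.48 and -2.33 against -0.24 and 0.46. Postn, Cdh11, Lox, Krt18, Vegfa and Hk2 were also called lower after Bre1a, with differences of -2.83, -2.16, -1.25, -1.09, -0.96 and -1.02.

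In the other direction, Ptn, the growth factor pleiotrophin, was at 1.92 and 1.25 after Bre1a and at -0.64 and -0.97 after Bre1b knockdown (difference 2.39, limma adjusted p = 0.0372). Ypel1 was at 2.93 and 1.50 against -1.46 and -1.30, and Calr3, a testis calreticulin, at 2.06 and 1.58 against -0.10 and -0.78. Fetub, a secreted protease inhibitor of liver, was at 0.77 and 0.57 against -1.45 and -1.86. The mean of each of these 4 was above 0 after Bre1a and below 0 after Bre1b knockdown. For Calr3, however, 1 of its 3 probes was at -0.908 and -2.228 on the Bre1b arrays. The others were at 0.385 and -0.196 and at 0.22 and 0.076. Afap1l2, an adaptor of the kinase Src, was at 3.40 and 0.42 and rested mostly on the array against no knockdown. Klf2, Dna2, Sod1 and Gsr were called higher after Bre1a by 1.00, 1.51, 1.00 and 0.66. Hdac11, the olfactory receptor Olfr1006 and Uba7, the activating enzyme for Isg15, had negative values after either knockdown and were called higher after Bre1a, by 2.33, 2.78 and 2.16. In the G2 and mitosis list 18 of 48 members were called higher than after Bre1b knockdown and 0 lower, with a Bre1b median of -0.20.

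**Figure D4:**
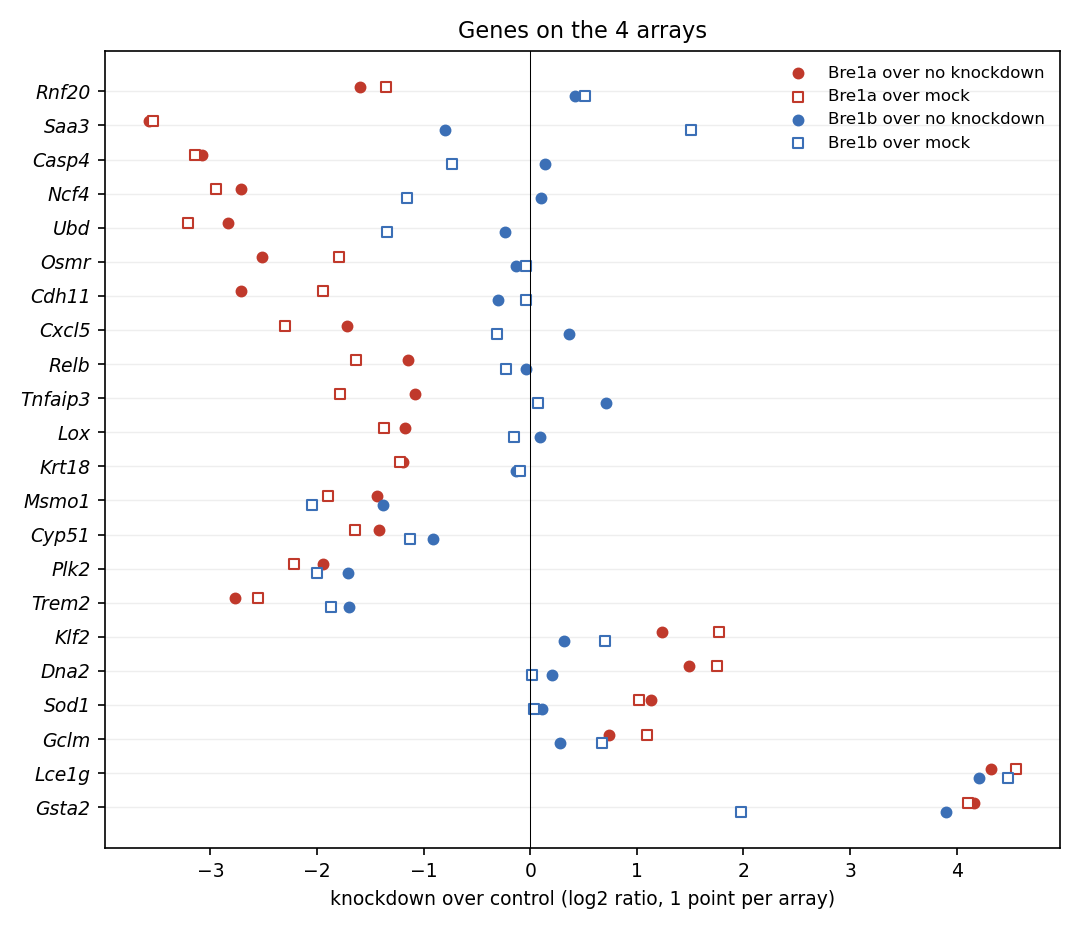
Log2 ratio of knockdown over control (horizontal axis) for 22 genes (rows), 1 point per array, red for Bre1a and blue for Bre1b, filled circles against no knockdown and open squares against mock. The red points of Rnf20, Casp4, Osmr, Relb and Lox lie left of the blue ones, those of Klf2, Dna2 and Sod1 lie right of them, and those of Lce1g and Plk2 lie close to them.

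Some genes with large ratios were not called in the contrast. Msmo1 differed by 0.05 between the knockdowns (SE 0.08, limma adjusted p = 0.696), Plk2 by -0.23 (limma adjusted p = 0.0723) and Lce1g by 0.10 (limma adjusted p = 0.246), and none of them was called. Gsta2 differed by 1.19 (SE 0.59, limma adjusted p = 0.228), with a wide error, and 8 of 16 glutathione transferases were called higher than after Bre1b knockdown and 0 lower. A missed threshold does not show that the knockdowns acted alike. Within sterol genes the difference had both directions, with Cyp51 lower after Bre1a (difference -0.51) and Insig1 and Stard4 higher by 1.07 and 0.75. The beta protocadherins gave 1 member higher than after Bre1b knockdown and 0 lower.

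Finally, 26 genes were at least 2-fold from the control on both Bre1a arrays but in opposite directions. Ces1g, a carboxylesterase, was at 1.71 and -2.95, and although limma called its mean of -0.62 lower, the arrays had opposite signs. Its Bre1b values, 1.75 and -2.87, split likewise, so the control term took up the split and the SE was 0.04. Kctd12 was at -2.72 and 1.83, where 1 of its probes gave -4.31 and 4.47 and the other -1.13 and -0.80. Scn8a, a sodium channel, was at -3.29 and 2.13, and Pycard, the adaptor of inflammasomes, at 1.66 and -2.80. Neither of the latter could be fitted.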

How the data were processed

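The authors deposited 1 value per spot and array, which the values themselves show to be a log2 ratio of Cy5 (knockdown) over Cy3 (control), per the labels' dyes. How the images were read, corrected for background, normalized and filtered was not given in the sources used here, and intensities were not analysed here, so the precision is limited by the number of arrays and brightness is unknown. The array medians ran from -0.033 to 0.014 and the SDs from 0.984 to 1.14. On each array 683 to 803 spots held 1 repeated value (within 0.002), which were kept. On the Bre1a arrays this value lay above 0 (0.079 and 0.148), so genes at it count as higher on both.

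Of 38784 probes 22204 had a gene symbol in the platform annotation and 16580 had none. Named probes with a value on both Bre1a arrays were averaged per gene. Genes with values on all 4 arrays (8676) were fitted with limma 3.58.1 in R 4.3.3 (lmFit and eBayes, two-sided, Benjamini-Hochberg over all genes fitted, threshold 0.05), with 1 coefficient for each knockdown plus a control term, leaving 1 residual and 1.57 prior degrees of freedom. Values printed for a fitted gene are those of the probes in the fit. The remaining 451 genes lacked a Bre1b value and were not fitted. The control term is the replicate number of the titles, which pairs arrays that share a control; the difference between the 2 arrays of a knockdown had a Pearson correlation of 0.60 between Bre1a and Bre1b over 8676 genes.

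The members and gene lists were chosen with earlier results of these data known, and no list was tested as a set. Named genes were Rnf20 and Rnf40, the 15 highest and 15 lowest genes by the smaller absolute value of the arrays, the 6 largest of opposite sign, up to 6 per list, the 8 largest differences from Bre1b in each direction, and the 5 highest and lowest genes not fitted. The text names a part of them. Epcam, Col1a2, Prr9, Lor, Sprr1a, Lce1l, C1ra, C1rl, Ccn1, Ccn2 and Loxl2 were named in addition, after their values were seen. Alternatives left out the control term or single arrays, centred or scaled the arrays, dropped spots at the repeated value, used 1 probe per gene, fitted single probes, fitted the Bre1a arrays alone, and used a stricter threshold. Promoter letters were counted in RefSeq windows of GRCm38.p6.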

Additional observations from a re-analysis of the deposited data

Results flagged for a closer look

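Leaving out Krt1, Mgst2 and Wnt4, 177 fitted genes were described above. The difference between the knockdowns was called for 98 of them, 35 higher and 63 lower after Bre1a. It is printed for 44 of the 177, a selection, and the 39 called among these, with limma adjusted p from 0.0372 to 0.0473, are given here. They stand out because the knockdowns, set against the same controls, gave different ratios. Lower after Bre1a than after Bre1b knockdown were the inflammatory genes Cxcl2 (difference -4.57 in log2), Il11 (-3.12), Casp4 (-2.81), Ncf4 (-2.30), Ubd (-2.23), Osmr (-2.07), Cxcl5 (-2.03), Tnfaip3 (-1.83), Relb (-1.26) and Trem2 (-0.88). Matrix, adhesion and cytoskeletal genes on that side were Postn (-2.83), Cdh11 (-2.16), Lox (-1.25) and Krt18 (-1.09). Further genes on that side were Cyp1b1 (-4.56), Ror1 (-3.54), Zhx2 (-3.29), Atf3 (-3.07), Stx3 (-3.01), Rnf20 (-1.94), Hk2 (-1.02), Vegfa (-0.96) and Cyp51 (-0.51).

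Higher after Bre1a than after Bre1b knockdown were Ypel1 (3.60), Afap1l2 (3.57), Olfr1006 (2.78), Ptn (2.39), Hdac11 (2.33), Fetub (2.32), Calr3 (2.26), Uba7 (2.16), Rnf40 (1.77), Dna2 (1.51), Insig1 (1.07), Sod1 (1.00), Klf2 (1.00), Stard4 (0.75), Gsr (0.66) and Gclm (0.45). No group held 4 or more arrays, so single outlying arrays could not be tested for.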

How the results depend on the processing

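Nearly all calls rested on the control term, which is the replicate block. With no replicate block limma called 2 genes for Bre1a in place of 3551 (2078 at an unadjusted p under 0.05), 0 for Bre1a minus Bre1b in place of 2161, and 2 of the 1372 list members in place of 629 and 2 of the 177 genes described in place of 168; Rnf20 stayed at -1.48 (adjusted p = 0.0577) and Rnf40 at 0.41 (adjusted p = 0.236). Scaling every array to 1 common spread gave 2058 genes for Bre1a (912 higher, 1146 lower), 0 for the difference (2661 at an unadjusted p under 0.05) and 401 list members, and Rnf40 was at 0.43 (adjusted p = 0.062). Fitted by probe, 6675 of 18620 probes were called. The Bre1a arrays alone gave 0 of 9127 (1473 at an unadjusted p under 0.05), and an adjusted p under 0.01 gave 0 (4827 at an unadjusted p under 0.05). Leaving out single arrays gave 7 to 131 genes for Bre1a, 0 to 70 for the difference, 7 to 33 list members and 7 to 30 of the genes described, with Rnf20 from -1.60 to -1.35 and Rnf40 from 0.17 to 0.65. These fits also had no control term, and the lone array of a knockdown was assumed to vary like the others. Of the 6347 genes of 1 sign, 928 were at least 0.5 from 0 on both arrays, 296 at least 1 and 55 at least 2. Direction reversed for Ces1g (-2.95 to 1.71 as arrays were left out), Kctd12 (-2.72 to 1.83, and 0.08 with 1 probe), Atf3 (-1.42 to 0.44), Loxl2 (-0.56 to 0.14) and Epcam (-0.24 to 0.61). Centring the arrays, dropping spots at the repeated value or using 1 probe per gene kept the counts for Bre1a within 1.5 times. Other causes were not tested.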

Other observations

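Some of the largest ratios lay in genes that could not be fitted because a Bre1b value was missing. Among these 451 genes 91 (20.2%) were at least 2-fold from the control on both Bre1a arrays in 1 direction, 15 higher and 76 lower, against 205 of the 8676 fitted genes (2.36%) when all probes with both Bre1a values are averaged. The highest, besides the epidermal genes and Gsta1, were H2-M10.4, a class Ib histocompatibility gene, at 4.38 and 4.91, and Sort1, the sorting receptor sortilin, at 3.78 and 2.88. Ranked by the smaller absolute value of the arrays, the lowest included Dstyk, a dual-specificity kinase, at -5.13 and -4.50. Also among the lowest were Ifng, interferon gamma, at -3.59 and -6.86 and Hnf4a, a liver transcription factor, at -3.27 and -3.22. The others were Lkaaear1 at -4.83 and -3.24 and Prm3, a protamine, at -3.51 and -2.98. Ifng is known as a product of lymphocytes, and these values rest on spots without replicates on the Bre1b arrays.

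Probes without a gene name also held many large ratios. Of 6432 unnamed probes with both values 865 (13.4%) were at least 2-fold from the control in 1 direction, 271 higher and 594 lower, against 382 of 13646 named probes (2.80%). Smad9, a mediator of BMP signals, and Mug1, a protease inhibitor, had the same pair of values to 2 decimals, -1.96 and 1.73, and both had opposite signs on the arrays.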
